A study of Mus musculus with 72 samples.

Results

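The neurotrophins and their receptors were followed through 72 RNA-seq libraries of mouse melanoma cell lines treated with the peptide GRP. The group held 7 of the 50600 genes in the count table, taken by symbol: the ligand genes Bdnf, Ntf3 and Ntf5, the Trk receptor genes Ntrk2 and Ntrk3, the p75 receptor gene Ngfr and the sortilin gene Sort1. It was put together because Bdnf responds to GRP in several lines that express the GRP receptor gene Grpr. The values of GRP against mock in those lines are therefore a description, given with no p-value, and so are the other comparisons of Bdnf that share their mock or GRP libraries.

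The 6 lines came from melanomas of mice carrying Tyr::NRASQ61K/°, an oncogenic NRAS driven in melanocytes by the tyrosinase promoter. Lines 1057 and 1064 were from females, also carried Cdkn2a-/-, Tyr::CreA/° and Cdh1dF/dF, and expressed their own Grpr. The male line labelled Cdkn2a-/-, °/° and Cdh1dF/dF was used as 1181-Grpr, with CMV::Grpr/tGFP, and as 1181-Ctrl, with CMV::tGFP. The female line 1014, for which no further allele is labelled, was used in the same pair of versions, 1014-Grpr and 1014-Ctrl, so that Grpr in those versions was driven by the CMV promoter. Each line was starved for 18 h and then kept for 4 h in 0.5% serum with 0.1% DMSO (mock), 10 nM GRP, 1 µM RC-3095 (RC), an antagonist of the receptor, or both, in 3 libraries per treatment. A line number stands for 1 tumour, so that 1014-Grpr and 1014-Ctrl share a tumour, as by label do 1181-Grpr and 1181-Ctrl. No label states that the 3 libraries were separate cultures, so the p-values measure only the spread between libraries, which may be technical.

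Neurotrophins are small secreted growth factors that keep neurons alive and shape their synapses. They are made as precursors, cut to the mature form by furin-like and extracellular proteases, and bind as dimers to Trk receptor tyrosine kinases, while the precursors bind a complex of p75 and sortilin. BDNF and neurotrophin-4/5, encoded by Bdnf and Ntf5, bind TrkB, the product of Ntrk2, and neurotrophin-3, encoded by Ntf3, binds TrkC, the product of Ntrk3. In the pigment lineage p75 is known as CD271, a marker of neural crest cells and of neural crest-like melanoma cells.

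Library totals ran from 19512882 to 46862053 counts with a median of 28112904.5. CPM stands for counts scaled to library size with edgeR's TMM factors, and TPM for the authors' value, which also takes account of transcript length. A floor of 3 counts came to at most 0.154 CPM, and floors and intervals on counts cover counting error only. Melanocyte lineage markers were present in all lines, with 9 of 9 detected and a summed level from 7456 to 56870 TPM, while the defining neuronal markers Rbfox3, Snap25 and Syt1 had medians under 1 TPM in all 6 lines. Mean Grpr in mock libraries was 327 TPM in 1057, 1226 TPM in 1064, 181 TPM in 1014-Grpr and 17.5 TPM in 1181-Grpr, and Cdh1, the E-cadherin gene, stayed at or under 0.08 TPM in 1057 and 1064. Cdh1 was measured at 12.1 to 22.3 TPM in 1181-Ctrl, whose label reads Cdh1dF/dF without Cre. The library labelled 1014-Ctrl mock replicate 2 held Grpr at 69.8 TPM and the Y-linked Ddx3y at 45.3 TPM, against the label. The library labelled 1181-Grpr GRP+RC replicate 2 had both genes at 0 TPM. Cdh1 was at 18.2 TPM in the former, where the other 1014-Ctrl libraries held 1.52 to 4.05 TPM. It was at 3.68 TPM in the latter, where the other 1181-Grpr libraries held 7.84 to 20.5 TPM. Xist was at 35.1 TPM in the former and 162 TPM in the latter. Whether the 2 libraries were exchanged was not tested. Results that rest on either library are given with and without it where its removal moved the value. The other 11 libraries of 1181-Grpr held Xist, the RNA of the inactive X chromosome, at 39.7 to 53.9 TPM together with Ddx3y at 27.5 to 45.0 TPM, while 1181-Ctrl had Xist at 0.14 TPM or less. On Xist the line thus went against its male label, and the bearing of this on the members was not tested.

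Bdnf lies on chr2:109674700-109727007 (GRCm38, forward strand) and is transcribed from several alternative promoters, each joining its own 5′ exon to the shared coding exon. The gene counts do not tell these promoters apart. RefSeq start sites on GRCm38.p6 gave 11 promoter windows, from 250 bases before to 50 bases after a start, for 4 of the 7 genes: 7 for Bdnf, 2 for Ntf3, 1 for Ntrk2 and 1 for Ngfr. They were searched on both strands for the cAMP response element TGACGTCA, its core TGACG, which also lies within the full element, the AP-1 element TGANTCA and the TEAD motif GGAATG. Among all 32851 RefSeq windows of this length these letters were found in 1.79%, 20.8%, 7.81% and 14.7%, in that order. Of the 11 windows, matches were found in 3 of Bdnf and in none of Ntf3, Ntrk2 or Ngfr. The 250 bases before the start of those 3 windows are shown 5′ to 3′ because they are the ones with a match, which is in capitals.
Bdnf window 2, chr2:109676782-109677031: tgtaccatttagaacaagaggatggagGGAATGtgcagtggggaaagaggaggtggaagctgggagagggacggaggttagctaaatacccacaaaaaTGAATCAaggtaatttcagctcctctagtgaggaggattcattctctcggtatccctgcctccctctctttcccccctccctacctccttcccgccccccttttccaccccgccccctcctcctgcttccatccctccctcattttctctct
Bdnf window 3, chr2:109692186-109692435: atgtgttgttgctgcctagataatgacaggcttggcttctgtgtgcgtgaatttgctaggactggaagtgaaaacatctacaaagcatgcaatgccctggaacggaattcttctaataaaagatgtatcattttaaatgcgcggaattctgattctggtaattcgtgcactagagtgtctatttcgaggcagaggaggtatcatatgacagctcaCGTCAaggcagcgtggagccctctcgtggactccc
Bdnf window 7, chr2:109722671-109722920: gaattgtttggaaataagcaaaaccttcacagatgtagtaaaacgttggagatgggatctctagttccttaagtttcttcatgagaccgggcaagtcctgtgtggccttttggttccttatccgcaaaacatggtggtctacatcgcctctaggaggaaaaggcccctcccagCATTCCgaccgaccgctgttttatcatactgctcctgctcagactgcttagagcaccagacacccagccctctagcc
Window 2 held the TEAD letters at bases -223 to -218 and the AP-1 letters at -152 to -146 from its start. Window 3 held the core of the response element, on the reverse strand, at -35 to -31. Window 7 held the TEAD letters, on the reverse strand, at -77 to -72 and once more at 18 to 23 after the start. The match says only that these letters are in the window, and which promoter gave the counted reads was not measured.

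Sort1, on chr3:108284082-108361511, had the highest level per length of the 7 genes in each of the 72 libraries and ranged from 169 to 410 TPM. Ngfr, on the reverse strand of chr11:95568818-95587735, ranged from 0.16 to 167 TPM and Ntrk3, on the reverse strand of chr7:78175959-78738012, from 0 to 21.3 TPM. The ligand genes were low by comparison. Ntf5, on chr7:45413695-45417179, lay between 0.16 and 3.04 TPM, and Bdnf between 0 and 20.5 TPM with every value above 2.04 TPM in line 1064.

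**Figure D1:**
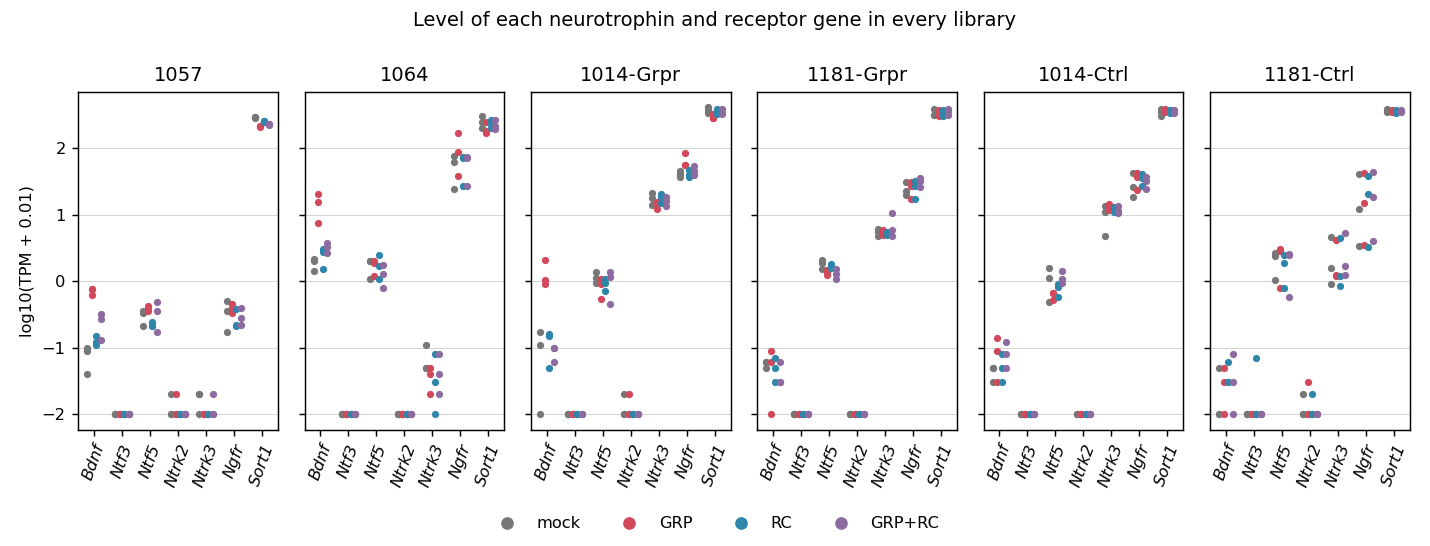
Level of the 7 genes in the 72 libraries as log10(TPM + 0.01), 1 panel per line and 1 point per library, coloured by treatment, so that -2 is a TPM of 0. Sort1 sits at 169 to 410 TPM in all 6 lines, Ngfr drops under 0.5 TPM in 1057, Ntrk3 is near 0 in 1057 and 1064, and Ntf3 and Ntrk2 lie at or near 0.

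Transcripts of Ntf3 and of Ntrk2 were hardly detected. Ntf3, on the reverse strand of chr6:126101412-126166910, had 1 count in 1 of the 72 libraries. Ntrk2, on chr13:58806569-59133970, had 8 counts in all, with 65 libraries at 0 and at most 2 counts in any library. So the gene of the high-affinity receptor of BDNF was below the floor of 3 counts in every library, including those where Bdnf was highest. Sorcs2, a sortilin relative that also binds precursors, was measured at 29.8 to 223 TPM.

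Bdnf was at or under 9 counts in mock libraries of 5 of the 6 lines and was higher in all GRP libraries of 3 of the 4 lines with Grpr. In line 1057 the mock libraries held 2, 5 and 6 counts (0.0546, 0.139 and 0.165 CPM) and the GRP libraries 46, 56 and 41 counts (1.44, 1.5 and 1.20 CPM). In line 1064 the mock libraries held 94, 53 and 132 counts (3.47, 2.5 and 4.01 CPM) and the GRP libraries 767, 892 and 412 counts (29.2, 40.9 and 14.5 CPM). In 1014-Grpr the mock libraries held 5, 9 and 0 counts (0.173, 0.277 and 0 CPM) and the GRP libraries 46, 113 and 74 counts (1.88, 3.85 and 1.69 CPM). In each of these 3 lines the lowest GRP library was above the highest mock library. Across all genes tested, the 3 GRP libraries all stood above the 3 mock libraries for 27.6% of genes in 1057, 11.2% in 1064 and 21.6% in 1014-Grpr.

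The ratio of the mean CPM, GRP over mock, was 11.5 in 1057, 8.49 in 1064 and 16.5 in 1014-Grpr. The fitted log2 fold changes of Bdnf were 3.49 ± 0.35 (SE) in 1057, 3.08 ± 0.39 in 1064 and 3.87 ± 0.56 in 1014-Grpr, and the difference between lines was not tested. The levels reached were far apart. The highest GRP library of 1064 held 892 counts and the highest of 1057 held 56. Within a line the ratio differed by replicate number: 26.4, 10.8 and 7.23 in 1057 and 8.41, 16.4 and 3.63 in 1064 for numbers 1, 2 and 3. In 1014-Grpr it was 10.9 and 13.9 for numbers 1 and 2, and the mock library of number 3 was at 0.

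**Figure D2:**
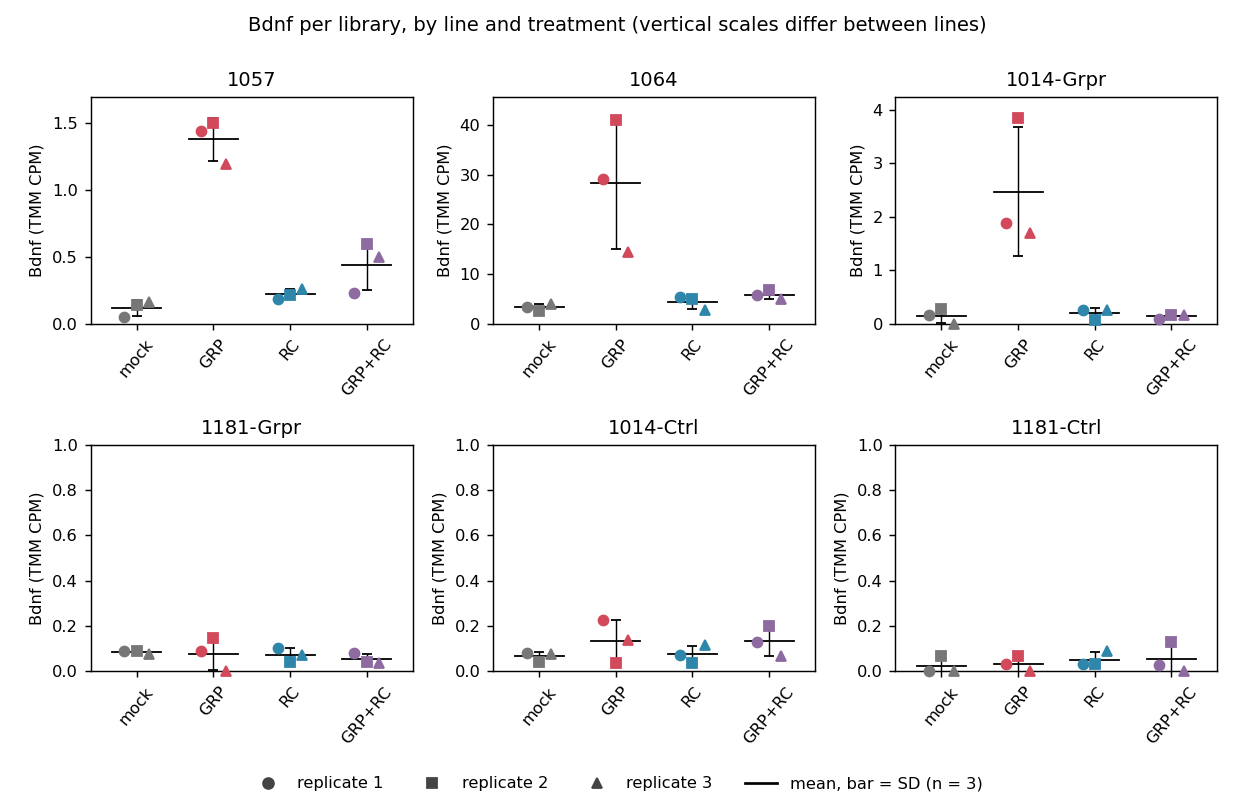
Bdnf in TMM-scaled CPM by treatment, 1 panel per line with its own linear scale, with 1 point per library, the mean as a line and the SD as a bar (n = 3). GRP libraries stand above mock libraries in 1057, 1064 and 1014-Grpr and fall back where RC was added, while 1181-Grpr and the 2 control lines stay at or under 0.224 CPM.

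Where RC was given with GRP, Bdnf was lower in all libraries than with GRP alone. The GRP+RC libraries held 9, 21 and 16 counts in 1057, 181, 209 and 141 counts in 1064 and 2, 4 and 4 counts in 1014-Grpr. The ratio of mean CPM, GRP+RC over GRP, was 0.320 in 1057, 0.208 in 1064 and 0.0575 in 1014-Grpr, with no overlap between the groups in any of the 3 lines. Across all genes tested, groups that did not overlap in this direction made up 20.0%, 7.25% and 16.4%. With RC alone Bdnf held 7, 8 and 8 counts in 1057 (0.190, 0.219 and 0.265 CPM), each above the highest mock library, for a ratio of 1.88, beside 18.8% of all genes that were higher in the same way. RC alone gave 156, 155 and 80 counts in 1064 and 5, 2 and 7 counts in 1014-Grpr, both overlapping with mock.

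The comparison of GRP+RC with RC alone asks what GRP did with RC present. Whether the block of the receptor was complete was not tested. The libraries compared are not those that chose Bdnf, but in 1057 and 1014-Grpr Bdnf passed the filter on low counts only through its GRP libraries, so its values there are given with no test. In 1057 Bdnf was at 0.234, 0.595 and 0.498 CPM with both and at 0.190, 0.219 and 0.265 CPM with RC, which overlap, for a ratio of means of 1.97. In 1014-Grpr, with at most 7 counts in a library, the ratio was 0.729 and the groups overlapped. In 1064 the values were 5.83, 6.82 and 4.98 CPM against 5.40, 5.0 and 2.79 CPM, and edgeR's quasi-likelihood test gave a log2 fold change of 0.42 (95% interval -0.39 to 1.23, adjusted p = 1.00).

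Line 1181-Grpr did not show the higher Bdnf counts with GRP. It held 3, 2 and 2 counts of Bdnf in mock and 3, 4 and 0 counts in GRP libraries, with 1 to 3 counts in the other libraries, and Bdnf did not pass the filter on low counts there. Mean Grpr in mock libraries was lower in that line than in the other 3, as given above. With GRP it was 69.7 TPM in 1181-Grpr, 721 TPM in 1014-Grpr, 235 TPM in 1057 and 556 TPM in 1064. The bearing of the Grpr level on Bdnf was not tested. The libraries of 1014-Ctrl, with no Grpr transgene, held 2, 1 and 2 counts of Bdnf in mock and 6, 1 and 4 with GRP, and those of 1181-Ctrl held 0, 2 and 0 and then 1, 2 and 0. These values lie around the floor of 3 counts, and a response smaller than a few counts was not detectable at this depth. The mock library of 1014-Ctrl that went against its label is the one with 1 count.

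Ntf5, whose product shares the TrkB receptor with BDNF, did not follow Bdnf. Its mock libraries in 1057 were at 0.164, 0.250 and 0.276 CPM and its GRP libraries at 0.282, 0.322 and 0.350 CPM, which did not overlap, as for 27.6% of all genes, and rest on 6 to 12 counts. In 1064 it was at 1.44, 0.802 and 1.61 CPM in mock and 1.64, 1.01 and 1.55 CPM with GRP, and in 1014-Grpr at 1.04, 0.831 and 0.671 CPM and 0.694, 0.852 and 0.411 CPM. In both lines the groups overlapped. In 1181-Grpr Ntf5 was at 1.12, 1.42 and 1.57 CPM in mock and at 1.07, 1.02 and 0.945 CPM with GRP, all lower, as for 1.30% of all genes there. The RC libraries of that line were at 1.33, 1.20 and 1.29 CPM and the GRP+RC libraries at 1.12, 0.832 and 0.987 CPM, again all lower, as for 2.33% of genes, a log2 fold change of -0.38 ± 0.22 (SE, adjusted p = 0.850) that was -0.28 without the library against its label. In 1014-Ctrl the order was the other way, with GRP+RC above RC in all libraries, as for 2.01% of genes, by 0.57 ± 0.39 (adjusted p = 1.00). The log2 fold change for GRP was 0.47 ± 0.38 (SE) in 1057 and 0.12 ± 0.40 in 1064. For 1014-Grpr it was -0.42 ± 0.39, and for 1181-Grpr -0.43 ± 0.21. By line, the median of Ntf5 was 0.33 TPM for 1057, 0.86 TPM for 1014-Ctrl, 0.995 TPM for 1014-Grpr, 1.51 TPM for 1181-Grpr, 1.73 TPM for 1064 and 2.41 TPM for 1181-Ctrl, and the ranges of lines next to each other in this order overlapped.

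Ntrk3, the TrkC gene, marked lines rather than treatments. It lay between 11.9 and 21.3 TPM in 1014-Grpr, between 4.80 and 14.6 TPM in 1014-Ctrl, between 4.84 and 10.7 TPM in 1181-Grpr and between 0.84 and 5.29 TPM in 1181-Ctrl, and at most at 0.01 TPM in 1057 and 0.10 TPM in 1064. Apart from the gap down to 1064, neighbouring lines in this order overlapped. Without the 2 libraries that went against their labels, 1014-Ctrl and 1181-Grpr did not. Those libraries set the lowest value of 1014-Ctrl and the highest value of 1181-Grpr: 4.80 TPM where the other libraries of 1014-Ctrl started at 10.6 TPM, and 10.7 TPM where the other libraries of 1181-Grpr ended at 5.96 TPM.

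Those libraries also moved the treatment values of Ntrk3. In 1014-Ctrl the mock libraries were at 95.3, 41.7 and 113 CPM and the GRP libraries at 124, 101 and 113 CPM, a log2 fold change of 0.43 ± 0.27 (SE, adjusted p = 0.698), which was 0.11 ± 0.12 without mock replicate 2. In 1181-Grpr the GRP+RC libraries were at 40.8, 96.8 and 51.3 CPM and the RC libraries at 42.0, 45.7 and 48.5 CPM, a log2 fold change of 0.47 ± 0.26 (adjusted p = 0.850), which was 0.02 ± 0.14 without GRP+RC replicate 2. With GRP in 1014-Grpr, Ntrk3 went from 152, 118 and 174 CPM to 139, 109 and 130 CPM, with overlap. In 1181-Ctrl the libraries numbered 1 held 4.18 to 5.29 TPM in all 4 treatments and those numbered 2 and 3 held 0.84 to 1.67 TPM, so that the replicate number moved Ntrk3 more than any treatment did.

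Ngfr, the p75 gene, had its highest mean with GRP in 1057, 1064 and 1014-Grpr, and only in 1014-Grpr did its GRP and mock libraries not overlap. In 1014-Grpr the mock libraries were at 36.0, 44.2 and 38.5 CPM and the GRP libraries at 56.5, 87.0 and 56.7 CPM. The lowest GRP library was above the highest mock library, as for 21.6% of all genes, the ratio was 1.57, 1.97 and 1.47 by replicate number, and the fitted log2 fold change was 0.75 ± 0.17 (SE), under the 2-fold limit of a call. RC alone gave 35.2, 45.4 and 38.0 CPM and GRP+RC gave 38.5, 52.4 and 43.7 CPM, a difference of 0.18 on the log2 scale (95% interval -0.20 to 0.56, adjusted p = 0.943).

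In 1064 Ngfr varied as much between replicate numbers as between treatments. The mock libraries were at 57.8, 75.6 and 25.1 CPM and the GRP libraries at 176, 97.2 and 41.8 CPM, which overlap, although each GRP library was above the mock library of its own number, by 3.05, 1.29 and 1.66 times. The log2 fold change was 0.99 ± 0.60 (SE). RC alone gave 69.8, 75.7 and 27.2 CPM and GRP+RC 73.1, 73.1 and 27.7 CPM, so that the difference was 0.01 with an interval of -1.31 to 1.33. The fit held no term for the replicate number, and by number the ratios were 1.05, 0.965 and 1.02. In 1181-Ctrl, without Grpr, Ngfr also varied by replicate number, whatever the treatment. It stayed at 11.9 to 20.6 CPM in the libraries numbered 1 and at 3.28 to 3.99 CPM in those numbered 2. In those numbered 3 it stayed at 37.8 to 43.6 CPM. Line 1057 had 6 to 18 counts of Ngfr in any library. In 1181-Grpr the mock libraries were at 29.3, 19.2 and 22.8 CPM and the GRP libraries at 29.4, 17.0 and 26.8 CPM, and in 1014-Ctrl they were at 25.2, 18.5 and 40.3 CPM and at 22.7, 36.2 and 40.5 CPM. Both pairs of groups overlapped, and the lowest of the 12 libraries of 1014-Ctrl, at 18.5 CPM, was the one against its label. The log2 fold change of Ngfr for GRP against mock in 1014-Ctrl was 0.24, and 0.02 without that library.

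Sort1 moved little, and in line 1057 the small differences were outside the spread between libraries. There Sort1 was at 673, 646 and 629 CPM in mock, 499, 503 and 502 CPM with GRP, 588, 591 and 578 CPM with RC and 530, 546 and 518 CPM with both. None of the 4 groups overlapped with another, and the order of their means, from the highest, was mock, RC, GRP+RC and GRP. Of all genes in 1057, 30.1% were lower in all GRP than in all mock libraries, 18.3% in GRP+RC than in RC and 19.6% in RC than in mock, and 17.4% were higher in GRP+RC than in GRP. The log2 fold change was -0.37 ± 0.03 (SE) for GRP against mock. For GRP+RC against RC it was -0.14 ± 0.03 (adjusted p = 0.00206) and for RC against mock -0.15 ± 0.03 (adjusted p = 0.00131). Adjusted p-values under 0.05 were given to 20.7% and 24.3% of all genes in these comparisons of 1057, so Sort1 was 1 of many genes with a small and repeatable difference there, and it stayed far under the 2-fold limit of a call.

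In the other lines Sort1 libraries overlapped between treatments. In 1014-Grpr it was at 725, 873 and 758 CPM in mock and 634, 747 and 644 CPM with GRP, lower for each replicate number by a ratio of 0.875, 0.857 and 0.850. In 1064 the ratio was 0.759, 0.931 and 0.960, from 517, 655 and 455 CPM to 392, 609 and 437 CPM. Over all treatments Sort1 stayed between 664 and 848 CPM in 1181-Grpr and the control lines. Of the exon bases of Sort1, 4.47% are overlapped by the antisense gene Gm12523, and of those of Bdnf, 14.4% by the antisense gene Gm45346. The kit keeps the strand, but whether the counting used it is not stated, so reads of the partners in these bases may not be told apart.

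**Figure D3:**
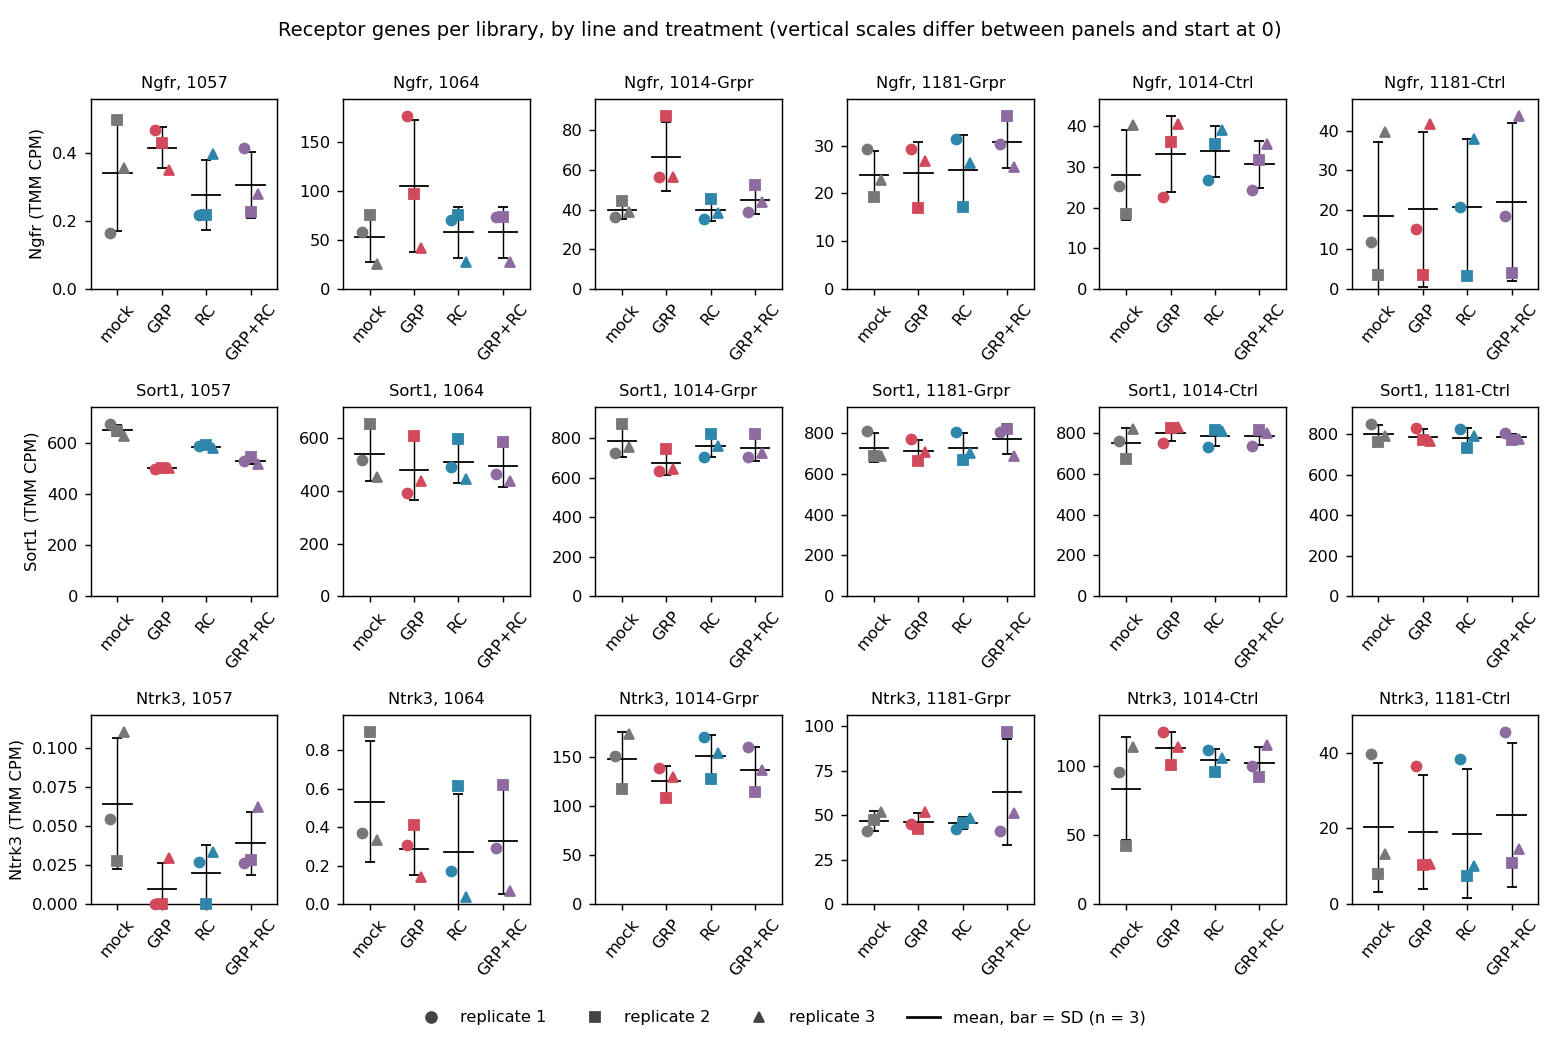
Ngfr, Sort1 and Ntrk3 in TMM-scaled CPM by treatment, 1 row per gene and 1 panel per line with its own linear scale, with a marker shape for each replicate number, the mean as a line and the SD as a bar (n = 3). Ngfr and Ntrk3 in 1181-Ctrl split by replicate number in all 4 treatments, and Sort1 in 1057 falls from 629 to 673 CPM in mock to 499 to 503 CPM with GRP.

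A gene was called where edgeR's Benjamini-Hochberg adjusted p was under 0.05 and the log2 fold change was beyond 1 in size. For GRP against mock in the 4 lines with Grpr, 18 of the 28 pairs of a gene and a line passed the filter on low counts, and 3 were called, all of them Bdnf, in 1057, 1064 and 1014-Grpr. Of all genes tested, the called share was 6.46% for 1057, 2.32% for 1064, 4.01% for 1014-Grpr and 0.00% for 1181-Grpr. The call in 1064 was lost without replicate 1 and without replicate 2, where the log2 fold change was 3.08 and 2.56. Since Bdnf was chosen on this contrast, nothing is read from the count. Without the limit on size 5 pairs passed, Sort1 in 1057 and Ngfr in 1014-Grpr being the others, beside 52.6%, 6.38%, 29.0% and 0.00% of all genes in that order of lines. For GRP+RC against GRP, 2 pairs were called, Bdnf in 1057 and in 1014-Grpr, beside 1.02%, 0.0145%, 1.73% and 0.00% of all genes. The call of Bdnf in 1064 was made by DESeq2 and not by edgeR. The GRP libraries compared are those on which Bdnf was chosen, so nothing is read from these calls. For GRP+RC against RC in the same lines none of the 18 pairs was called by edgeR or by DESeq2. Of all genes, 0.916% were called in 1057 and 0.00% in the other 3 lines. Leaving aside the Bdnf pairs of 1057 and 1014-Grpr, only Sort1 in 1057 had an unadjusted p under 0.05. The share of all genes at that limit was 30.8% for 1057, 0.174% for 1064, 6.93% for 1014-Grpr and 1.82% for 1181-Grpr. Nothing is read from the Bdnf pairs of 1057 and 1014-Grpr in these counts, nor in those with RC alone or between versions, since Bdnf passed the filter there only through its GRP libraries.

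In the 2 control lines none of the 8 pairs tested of 14 was called for GRP against mock, beside 0.00% of all genes, and none was called by DESeq2 or had an unadjusted p under 0.05, beside 4.09% of all genes in 1014-Ctrl and 0.261% in 1181-Ctrl. The intervals there were wide where libraries differed by replicate number. For Ngfr in 1181-Ctrl the log2 fold change was 0.14 with an interval of -2.46 to 2.74, although the GRP over mock ratios by number were 1.26, 1.03 and 1.05, and with the replicate block it was 0.15 ± 0.12 (SE). By contrast, for Sort1 in 1181-Ctrl the log2 fold change was -0.02 with an interval of -0.19 to 0.14. GRP+RC against RC in the control lines likewise called none of 8 pairs by edgeR or DESeq2, with 0.00% of all genes called and none of the pairs at an unadjusted p under 0.05, beside 0.443% and 0.289% of all genes. For RC against mock, none of 26 pairs tested in the 6 lines was called by either tool, beside 0.888% of all genes in 1057 and 0.00% elsewhere, and Sort1 in 1057 was the 1 pair with an unadjusted p under 0.05, beside 35.3% of all genes there. The same share was 0.935% for 1064, 1.17% for 1014-Grpr, 0.227% for 1181-Grpr, 5.05% for 1014-Ctrl and 0.275% for 1181-Ctrl.

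The effect of GRP+RC against RC was also compared between the Grpr and the control version of each line. None of 9 pairs tested was called by edgeR or DESeq2 and none had an unadjusted p under 0.05, beside 0.00% of all genes called in either and 2.25% (1014) and 1.10% (1181) with an unadjusted p under 0.05. Bdnf in 1014 rests on 2, 1 and 3 counts with RC and 4, 5 and 2 with both in the control version, beside the counts of the Grpr version given above, and no difference is given. For Ngfr the difference, Grpr version minus control version, was 0.33 on the log2 scale (95% interval -0.41 to 1.07) in 1014 and 0.20 (-2.41 to 2.82) in 1181, and for Sort1 -0.02 (-0.30 to 0.25) and 0.09 (-0.19 to 0.36). Without the library against its label the values in 1181 were 0.07 for Ngfr and 0.04 for Sort1. Differences of Sort1 beyond 0.36 in size lay outside these intervals, while for Ngfr in both lines changes over 2-fold lay within them. The fits held no term for the replicate number, so the intervals include the spread between numbers. By number, GRP+RC over RC for Ngfr was 1.10, 1.15 and 1.15 in 1014-Grpr and 0.908, 0.891 and 0.915 in 1014-Ctrl. In 1181-Grpr it was 0.969, 2.10 and 0.969, number 2 being the library against its label, and in 1181-Ctrl 0.888, 1.22 and 1.15.

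**Figure D4:**
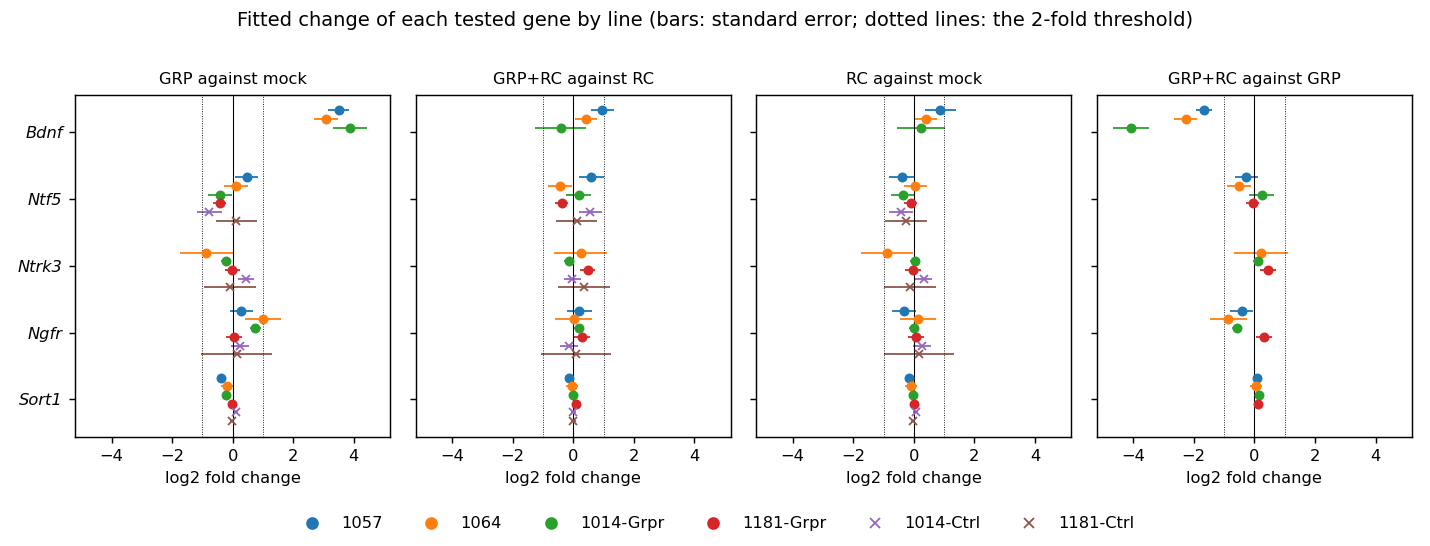
Log2 fold changes of the tested genes by line for 4 comparisons, from edgeR's quasi-likelihood fit, with bars for the standard error and dotted lines at -1 and 1. Bdnf lies at 3.08 to 3.87 for GRP against mock in 1057, 1064 and 1014-Grpr and at -0.41 to 0.96 for GRP+RC against RC, where no test is read for 1057 and 1014-Grpr, and the other genes lie between -0.90 and 0.99 in all 4 panels.

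Mock libraries were also compared between lines. The fit scaled them together, while the CPM values given beside it were scaled within each line. Among 20 pairs tested of 28, 5 were called, by edgeR and as many by DESeq2, and nothing is read from 1 of them, Bdnf, whose mock libraries served to choose it. The share of all genes called was 25.0% for 1057 against 1064, 16.4% for 1181-Ctrl against 1014-Ctrl, 6.32% between the 1181 versions and 0.0846% between the 1014 versions. In RC libraries these shares were 28.0%, 27.9%, 9.18% and 0.440%, and without the library against its label the last 3 were 26.1%, 8.23% and 0.228%. In bulk RNA, fewer cells of a type and less RNA per cell cannot be told apart.

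Line 1057 had less Bdnf, Ngfr, Ntf5 and Ntrk3 than line 1064, although both express their own Grpr and carry the same labelled alleles. The log2 difference, 1057 against 1064, was -7.27 ± 0.84 (SE, adjusted p = 6.52e-06) for Ngfr and -2.49 ± 0.47 (adjusted p = 0.000448) for Ntf5, and for Bdnf, as a description, -4.77 ± 0.58. With RC libraries in place of mock libraries Ngfr was at -7.73 and Ntf5 at -2.94, both called, and Bdnf, as a description, at -4.30. Among RC libraries Bdnf passed the filter on low counts only through line 1064, so no test is given. Ntrk3, which rests on 1 to 19 counts here, was at -2.92 ± 1.03 (adjusted p = 0.0287), and it was not called without any 1 of the 3 replicate numbers or in the RC libraries (-3.63, adjusted p = 0.0883). Sort1 was at 0.25 ± 0.13 (adjusted p = 0.129). Summed neuronal markers were at 14.2 to 39.4 TPM in 1064 and at 3.62 to 11.2 TPM in 1057, nearly all of it Map2, with Snap25 at 0 in all libraries of 1064. The part of these markers in the differences was not tested.

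Between the control versions, Ntrk3 was lower in 1181-Ctrl than in 1014-Ctrl by a log2 difference of -2.16 ± 0.48 (SE, adjusted p = 0.00354), with 39.8, 7.85 and 13.3 CPM against 95.3, 41.7 and 113 CPM. It was -2.49 without the library that went against its label and -1.65, no longer called, without replicate 3. Summed melanocyte lineage markers were at 7456 to 8680 TPM in 1181-Ctrl, with a median of 8252 TPM. In 1014-Ctrl they were at 24040 to 56290 TPM with a median of 52540 TPM, the library against its label included. The part of these markers in the Ntrk3 difference was not tested. Ntf5 was higher in 1181-Ctrl by 0.90 (adjusted p = 0.116), by 1.29 without that library (adjusted p = 0.0327) and by 1.05 in the RC libraries (adjusted p = 0.0300).

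The Grpr and control versions of a line were closer. In 1181, Ntrk3 was higher in the Grpr version by 1.28 ± 0.47 (SE) on the log2 scale, with an adjusted p of 0.114 that was 0.0401 in the RC libraries, where the difference was 1.34, and 0.0444 without the libraries that went against their labels, where it was 1.28. Ntrk3 in the mock libraries was at 40.8, 47.2 and 51.7 CPM in 1181-Grpr and at 39.8, 7.85 and 13.3 CPM in 1181-Ctrl. The gap to replicate 1 of 1181-Ctrl is too small to be read, since each line had its own scale. In 1014, Ntrk3 was at 0.87 (adjusted p = 0.535), which was 0.54 without the library that went against its label. The other members were not called between the versions of either line. The transgene, the history of each culture and, in 1181, the Xist level that differed between the versions cannot be told apart.

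The rest of the pathway was described by 6 lists. They covered 6 other ligands and receptors of the family, 12 proteases and other processing genes of the precursors, 12 partners of p75, 13 adaptors of Trk receptors, 17 factors known at Bdnf promoters, and 14 genes of the GDNF family and other neurotrophic factors. With RC present, 2 genes of all lists and lines were called for GRP+RC against RC, both of the processing list and both higher in 1057. There 7 of the 12 genes of that list were tested and 0.916% of all genes were called. At an adjusted p under 0.05 alone 1 more gene of that list was lower, and its median log2 fold change was -0.05 beside -0.01 for all genes. For GRP against mock in 1057, 2 genes of the list were higher and 2 lower at the adjusted p alone, with a median of -0.08.

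Plat encodes tissue plasminogen activator, a protease that acts through plasmin, which cuts the BDNF precursor. In 1057 it was at 411, 377 and 372 CPM in mock, 1895, 1924 and 1934 CPM with GRP, 546, 546 and 546 CPM with RC and 1073, 1138 and 1083 CPM with both. None of the groups overlapped, and for GRP+RC against RC the log2 fold change was 1.01 ± 0.04 (SE, adjusted p = 1.83e-12), so close to the 2-fold limit that without replicate 2 it was 0.99. Mmp3, the gene of the matrix metalloproteinase stromelysin, also known to cut the precursor, had 16, 9 and 10 counts in mock, 75, 68 and 68 with GRP, 18, 18 and 16 with RC and 48, 40 and 28 with both. Its log2 fold change for GRP+RC against RC was 1.12 ± 0.23 (adjusted p = 0.00192), and 0.98 without replicate 1.

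With GRP against mock, Manf, which encodes a neurotrophic protein of the endoplasmic reticulum, was called in 2 lines, with a log2 fold change of 1.74 in 1057 and 1.37 in 1064, and for GRP+RC against RC in 1057 it was 0.73 (adjusted p = 2.1e-08), under the limit. The remaining calls for GRP against mock, named after their values were seen, differed from line to line. In 1057 they were Sorcs3 (-1.33), a sortilin relative, the p75 partner Lingo1 (1.01), the adaptor Gab1 (-1.30) and the promoter factors Crem (1.66) and Bhlhe40 (1.02). In 1064 the neuronal activity factor Npas4 was called (6.27), and in 1014-Grpr the GDNF gene Gdnf (7.85), the p75 partner Ripk2 (1.18), the adaptor Sh2b2 (1.01) and the protease gene Pcsk5 (-1.16). The counts of Npas4 and Gdnf are not given, so how near 0 their mock libraries lay is not shown. None of the 6 lists had a call in 1181-Grpr. These calls stand beside 6.46% of all genes called for 1057, 2.32% for 1064, 4.01% for 1014-Grpr and 0.00% for 1181-Grpr. The list medians for GRP against mock ran from -0.26 to 0.37, beside medians of all genes from -0.02 to -0.00.

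The genes whose pattern was most like that of Bdnf were found from Pearson's r of log2(CPM + 1) across the 72 libraries after the mean of each line was subtracted, over 16595 genes. They were Zfp697 (r = 0.91), Ptchd1 (0.90), Dstn (0.90), Glipr2 (0.88) and Pcdh20 (0.87). The r of the other members with Bdnf was 0.30 for Ngfr, 0.04 for Ntf5, -0.08 for Ntrk3 and -0.31 for Sort1. The points share libraries and treatments, and Bdnf counts were highest in line 1064. With 0.1 in place of 1 as the added value, only 1 of the 5 stayed among the first 5.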

How the data were processed

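Libraries were polyA-selected and strand-specific (TruSeq) and, per the labels and the study's methods, aligned with STAR to mm10 after FastQC 0.11.5. The authors deposited raw counts per gene, which were the input of every test, and TPM values, which were used for levels and label checks. The counts were scaled by TMM, filtered with filterByExpr and fitted with edgeR 4.0.16 (limma 3.58.1, R 4.3.3), 1 fit of 12 libraries per line, 1 fit for mock libraries between lines and an interaction fit per pair of versions. A call needed a change of more than 1 on the log2 scale at an adjusted p under 0.05. DESeq2 1.42.0 was an alternative. Tables and figures used Python 3.11.15, pandas 2.3.3, numpy 2.4.6 and matplotlib 3.10.9, and the fit was tested on simulated data. Groups came from the labels, and 99.6% of gene IDs had a symbol. No pair of replicates was alike within sampling noise (smallest chi-square per degree of freedom 2.56).

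The members and lists were chosen with earlier results of these data known. The 7 members were always named, list genes if called in 2 or more of the 4 Grpr lines for GRP against mock or in any line for GRP+RC against RC, and the 5 genes most like Bdnf by r. Deviations from group means correlated between libraries of the same replicate number by at least 0.58 in 1064, 0.39 in 1014-Grpr and 0.74 in 1181-Ctrl, so numbers pair libraries throughout there. The lowest correlations were -0.15 in 1057, -0.01 in 1181-Grpr and 0.08 in 1014-Ctrl. Still, 11 of 12 libraries of 1181-Grpr and 12 of 12 of 1014-Ctrl were most like libraries of their own number, against 5 of 12 in 1057. Alternatives were other normalization and filter settings, a replicate block, leaving out each replicate number or the 2 libraries against their labels, 1 fit of all 72 libraries, and RC in place of mock libraries.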

Additional observations from a re-analysis of the deposited data

How the results depend on the processing

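The number of members called stayed within 1.5 times of that reported under DESeq2, other scaling factors, no filter on low counts and leaving out the 2 libraries against their labels. This held for each of the 8 comparisons in which members were counted. It also held for 1 fit of all 72 libraries, which covered only the comparisons within a line. With an adjusted p under 0.05 alone, the calls for GRP against mock went from 3 to 5 (Sort1 in 1057 and Ngfr in 1014-Grpr were added), those for GRP+RC against RC from 0 to 1 and those for RC against mock from 0 to 1 (Sort1 in 1057 in both). Leaving out 1 replicate number at a time gave 2 to 3 calls for GRP against mock and 3 to 5 for mock libraries between lines, with 3 without replicate 3. The call of Bdnf in 1064 was lost without replicate 1 and without replicate 2, where its log2 fold change was 3.08 and 2.56. With pseudocount 0.1, 1 of the 5 genes most like Bdnf stayed.

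With the replicate number as a block, in the lines where it pairs libraries throughout, the calls for GRP+RC against GRP went from 2 to 3. Bdnf in 1064 was added at a log2 fold change of -2.20, as it was with DESeq2 (-2.27), without the filter (-2.25) and in the fit of all libraries (-2.25). In that last fit the call of Bdnf in 1057 was lost at -1.62. The GRP libraries compared are those on which Bdnf was chosen, so nothing is read from these calls. The block left 3 calls for GRP against mock, 5 between lines and none in the other comparisons. Of 1444 alternative values of the members and named genes, 76 had the other sign and none of these was called. Depth limits Bdnf outside 1064, Ntf5, Ntf3 and Ntrk2, which rest on few counts.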
